A study of Mus musculus with 6 samples.

Results

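Matrix metalloproteinases (MMPs) are zinc-dependent endopeptidases that cut collagens, elastin, proteoglycans and many surface proteins, and the tissue inhibitors of metalloproteinases (TIMPs) block them by binding the active site. Most MMPs are secreted as inactive proenzymes, whereas a smaller group, Mmp14 among them, is anchored in the plasma membrane and is cut to its active form by furin on the way to the surface. Macrophages use this system to move through matrix, to turn over elastin and collagen, and to trim cytokines and receptors. The 10 genes described here were the rows of the deposited count table with the symbols Mmp2, Mmp8, Mmp9, Mmp12, Mmp13, Mmp14, Mmp19, Timp1, Timp2 and Timp3, out of 55453 genes listed. They were chosen by name, with earlier results of these data known. All 10 passed the filter on low counts, each through both groups, and the lowest count of any of them in any library was 36.

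The study asked how loss of the catalytic subunit of protein phosphatase 2A (PP2Ac, gene Ppp2ca) alters gene expression in bone marrow-derived macrophages (BMDM), macrophages grown in culture from mouse marrow. The PP2Ac KO group (3 libraries) came from LysM-cre PP2Ac fl/fl mice, in which cre is driven by the lysozyme 2 promoter of myeloid cells and removes exon 1 of Ppp2ca. The WT group (3 libraries) came from C57BL/6 mice, a strain shared by both groups, that were obtained from another source and carry no cre. The labels give no treatment or time, whereas the study's text describes RNA-Seq of BMDM given cGAMP, an agonist of the DNA-sensing adaptor STING. The mice of the study were young adults of both sexes. The study states in general that its cell experiments used 3 biological replicates unless otherwise noted. It does not say whether libraries of one genotype came from separate mice or separate cultures, so the p-values below measure the spread between these libraries. Effects of the mouse source or of cre cannot be told apart from that of the deletion.

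Library totals were 35257156 to 47390899 counts, and 13680 genes were tested. Levels are given as CPM, the reads of a gene relative to the library total, scaled by TMM, a method that aligns libraries on the bulk of genes, and 3 counts correspond to 0.0604 to 0.0909 CPM. The targeted gene Ppp2ca averaged 205.5 ± 8.50 CPM over the WT libraries and 1.01 ± 0.0987 CPM over the PP2Ac KO libraries (SD over 3 libraries each). The macrophage markers Adgre1, Csf1r, Cd68 and Cd14 were abundant in all 6 libraries (the lowest value was 1038 CPM, of Cd14). Of the 8 markers 2 rose (Fcgr1 and Mertk, or 5 with the replicate block described below) and the others were not called, beside 18.1% of all genes tested that rose (24.4% with the block). Lyz2 was listed at only 6.58 to 10.1 CPM, and its near-identical neighbour Lyz1 can share its reads.

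Of the 10 members, 2 rose in PP2Ac KO (Mmp13 and Mmp14) and 4 fell (Mmp12, Mmp19, Timp1 and Timp3). Over all genes tested, 18.1% rose and 19.0% fell, in the quasi-likelihood test of edgeR at a false discovery rate (FDR, adjusted after Benjamini and Hochberg) under 0.05. The members' median log2 fold change (PP2Ac KO minus WT) was -0.62, beside -0.02 over all genes tested. Mmp13, Timp1 and Timp3 passed the study's stricter thresholds of FDR under 0.01 and a log2 fold change beyond 1, which 6.35% of all genes tested passed in either direction. The libraries of the 2 genotypes did not overlap for 8 of the 10 members, 2 higher and 6 lower in PP2Ac KO, and the same held for 50.9% of all genes tested. The libraries' replicate numbers paired them across genotypes. With that number as a block, 2 members were called higher and 7 lower, because Mmp8, Mmp9 and Timp2 were then called too, beside 24.4% higher and 26.4% lower over all genes tested in that fit.

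**Figure D1:**
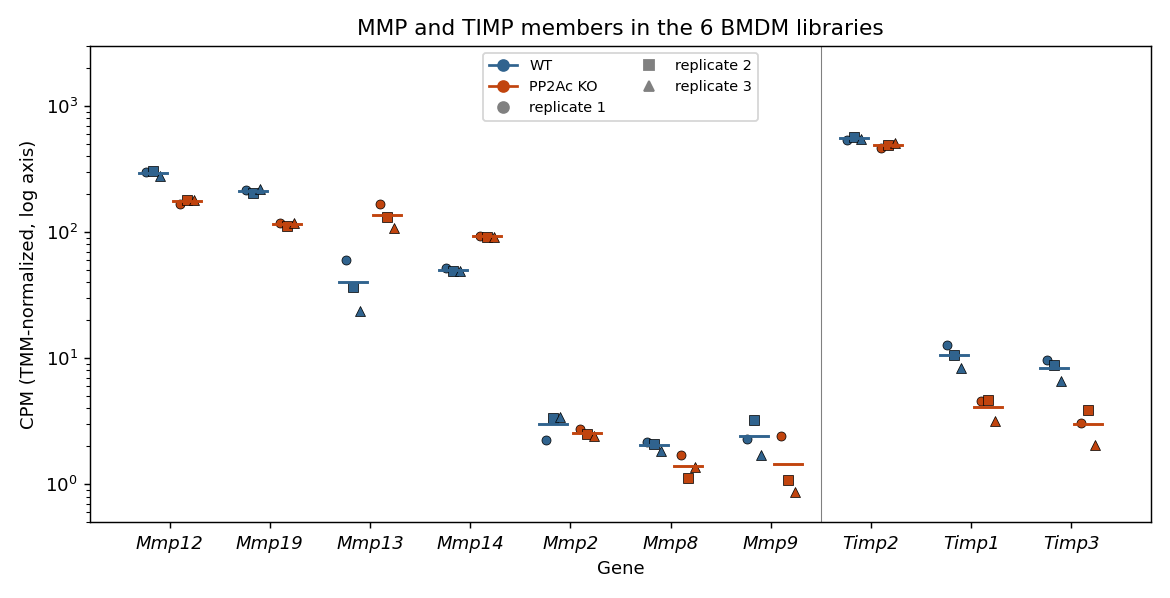
Expression of the 10 members in each library, in CPM on a log axis, with one point per library (shape gives the replicate number) and a bar at the mean of the 3 libraries of a genotype (blue WT, red PP2Ac KO). Mmp13 and Mmp14 lie higher in every PP2Ac KO library than in any WT library. Mmp8, Mmp12, Mmp19, Timp1, Timp2 and Timp3 lie lower in every PP2Ac KO library, and the points of Mmp2 and Mmp9 overlap.

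Mmp13 belongs to a cluster of 10 Mmp genes on chromosome 9, and its proximal promoter is shown first because it holds the letters of the AP-1 element, which Fos and Jun proteins bind, and these letters recur along the cluster. The 100 bases before the transcription start are printed 5′ to 3′ on the plus strand from RefSeq (assembly GRCm38.p6), with the match to TGANTCA in capitals. They are Mmp13 at chr9:7272414-7272513, Mmp12 at chr9:7347274-7347373 (the second of 2 starts), Mmp3 at chr9:7445722-7445821 and Mmp10 at chr9:7502242-7502341.
Mmp13: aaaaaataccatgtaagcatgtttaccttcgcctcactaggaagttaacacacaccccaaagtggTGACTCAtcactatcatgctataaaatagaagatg
Mmp12: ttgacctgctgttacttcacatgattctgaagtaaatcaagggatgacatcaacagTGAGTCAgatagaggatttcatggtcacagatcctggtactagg
Mmp3: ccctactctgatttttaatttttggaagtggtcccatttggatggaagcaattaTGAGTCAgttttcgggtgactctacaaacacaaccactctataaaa
Mmp10: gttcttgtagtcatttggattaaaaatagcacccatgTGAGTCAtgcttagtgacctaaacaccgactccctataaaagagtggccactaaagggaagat

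The match began at -35 in Mmp13, -44 in Mmp12, -46 in Mmp3 and -63 in Mmp10, counted in bases from the start. Windows of 250 bases before to 50 after each start were searched on both strands for TGANTCA (AP-1), for the ISRE, the element of interferon response, read here as GAAA, 2 bases of any kind and GAAA, and for TTCNNNGAA (GAS, the STAT element). These letters were present in 7.81%, 3.44% and 8.3% of all 32851 windows. In the chromosome 9 cluster, 8 of the 10 Mmp genes held the AP-1 letters in at least one window, and Mmp8 and Mmp27 did not. Mmp13 also held an ISRE match at -146. The windows of Mmp8, Mmp14, Timp1, Timp2 and Timp3 and the first window of Mmp12 held none of the 3 motifs, while Mmp2, Mmp9 and Mmp19 had no entry. Of the 4 printed genes, Mmp13 rose, Mmp12 and Mmp3 fell and Mmp10 was not called, with values below.

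Among the secreted collagenases, Mmp13 (collagenase 3, which cleaves fibrillar collagens) showed the largest rise of the members. It is annotated at chr9:7272514-7283331 on the plus strand of mm10, with 10 exons. Its level was 167.1, 132.0 and 108.7 CPM in PP2Ac KO libraries 1 to 3, and 60.0, 37.0 and 23.6 CPM in WT libraries 1 to 3. The libraries numbered 1 were the highest and those numbered 3 the lowest in both genotypes, and the lowest PP2Ac KO library stood above the highest WT library. The means of 135.9 ± 29.4 and 40.2 ± 18.4 CPM (SD, n = 3 each) went with a fitted fold of 3.37 (log2 fold change 1.75, SE 0.29, edgeR adjusted p = 0.00150). Between libraries of the same number the log2 difference was 1.48, 1.83 and 2.20.

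Mmp8 (collagenase 2, best known from neutrophil granules, chr9:7558456-7568485, plus strand) was scarce. PP2Ac KO libraries 1 to 3 held 1.72, 1.12 and 1.37 CPM, and WT libraries 1 to 3 held 2.17, 2.09 and 1.84 CPM. All 3 PP2Ac KO values lay below the WT values, yet the log2 difference of -0.53 (SE 0.19) missed the threshold (edgeR adjusted p = 0.0536). In edgeR the adjusted p was 0.0262 with the replicate block and 0.0275 without PP2Ac KO replicate 1 (log2 difference -0.71), and it ran from 0.0262 to 0.170 over 13 alternative settings. Of 10 neutrophil markers, only S100a8 was tested and it was not called (edgeR adjusted p = 0.953). The summed level of the neutrophil list was 0.999 to 1.06 CPM in PP2Ac KO and 0.805 to 1.17 CPM in WT, and Ly6g and Retnlg were at 0 in every library.

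Mmp14 (MT1-MMP, the membrane-anchored collagenase that also activates the proenzymes of Mmp2 and Mmp13, chr14:54431612-54445364, plus strand) rose with little spread. It stood at 93.9, 92.1 and 92.3 CPM in PP2Ac KO libraries 1 to 3, against 52.1, 49.5 and 49.0 CPM in WT libraries 1 to 3. The libraries of each genotype sat close together and the groups were well apart. The means were 92.8 ± 0.978 and 50.2 ± 1.69 CPM (SD, n = 3 each), with a fitted rise of 1.85-fold in PP2Ac KO (log2 fold change 0.89, SE 0.06, edgeR adjusted p = 3.90e-05).

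Mmp12 (macrophage elastase, chr9:7344381-7369499, plus strand) and Mmp19 (a secreted MMP that cuts basement membrane proteins, chr10:128790910-128800824, plus strand) were the most abundant MMP transcripts of the WT libraries, and both fell. Mmp12 stood at 168.7, 181.3 and 179.2 CPM in PP2Ac KO libraries 1 to 3 and at 298.4, 303.2 and 281.1 CPM in WT libraries 1 to 3. Every PP2Ac KO library was below every WT library, and the means of 176.4 ± 6.72 and 294.2 ± 11.6 CPM (SD, n = 3 each) went with a fitted log2 fold change of -0.74 (SE 0.07, edgeR adjusted p = 9.17e-05). Mmp19 showed the same separation. Its PP2Ac KO libraries 1 to 3 held 117.5, 112.1 and 118.8 CPM, and its WT libraries 1 to 3 held 214.8, 205.5 and 221.1 CPM. The fitted fall was 1.84-fold, from 213.8 ± 7.80 to 116.1 ± 3.54 CPM (SD, n = 3 each; log2 fold change -0.88, SE 0.06, edgeR adjusted p = 5.40e-05). Mmp12 overlaps the end of Mmp1b, which had 0 or 1 count per library, and Mmp19 overlaps Tmem198b on the other strand, which had 354 to 652 counts. Whether the counting used strand is not given in the sources used here, so reads in such overlaps may be assigned to either gene or to neither.

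The gelatinases Mmp2 and Mmp9, which degrade denatured collagen and basement membrane collagen, were both scarce. Mmp2 (chr8:92827291-92853420, plus strand) stood at 2.73, 2.51 and 2.42 CPM in PP2Ac KO libraries 1 to 3 and at 2.25, 3.33 and 3.41 CPM in WT libraries 1 to 3. The groups overlapped, since WT library 1 was the lowest of all 6, and the log2 difference was -0.22 (SE 0.18, edgeR adjusted p = 0.357). Mmp9 (chr2:164940780-164955850, plus strand) stood at 2.40, 1.09 and 0.862 CPM in PP2Ac KO libraries 1 to 3 and at 2.29, 3.24 and 1.72 CPM in WT libraries 1 to 3. Here PP2Ac KO library 1 lay among the WT libraries, while the other two lay below all of them. The log2 difference was -0.72 (SE 0.37, edgeR adjusted p = 0.156). Without PP2Ac KO replicate 1 it was -1.32 (adjusted p = 0.0151), and with the replicate block -0.72 (adjusted p = 0.0414), both in edgeR. Over the 13 alternatives the adjusted p ran from 0.00889 to 0.434, so a call of Mmp9 depended on the libraries and the fit.

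The inhibitors differed among themselves in level and in size of change. Timp2 (chr11:118301069-118355740, minus strand), which with Mmp14 forms the surface complex that activates Mmp2, was the most abundant member. Its PP2Ac KO libraries 1 to 3 held 468.4, 494.5 and 511.7 CPM, and its WT libraries 1 to 3 held 538.8, 569.1 and 551.7 CPM. All PP2Ac KO values were below all WT values, but the log2 difference was small at -0.17 (SE 0.07, edgeR adjusted p = 0.0711, and 0.00574 with the replicate block). It was called without WT replicate 1 (edgeR adjusted p = 0.0460) and under upper-quartile scaling (0.0238), and reached 0.222 at most.

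Timp1 (chrX:20870166-20874735, plus strand), a soluble inhibitor of most secreted MMPs, stood at 4.57, 4.63 and 3.19 CPM in PP2Ac KO libraries 1 to 3 and at 12.7, 10.7 and 8.32 CPM in WT libraries 1 to 3. The groups did not overlap, and the means of 4.13 ± 0.818 and 10.5 ± 2.17 CPM (SD, n = 3 each) went with a fitted fall of 2.57-fold (log2 fold change -1.36, SE 0.18, edgeR adjusted p = 5.40e-04). Timp3 (chr10:86300372-86349506, plus strand), which binds matrix and also inhibits the ADAM17 sheddase, stood at 3.04, 3.91 and 2.06 CPM in PP2Ac KO libraries 1 to 3 and at 9.70, 8.87 and 6.58 CPM in WT libraries 1 to 3. It too was lower in every PP2Ac KO library, with means of 3.0 ± 0.924 and 8.38 ± 1.61 CPM (SD, n = 3 each) and a fitted fall of 2.83-fold (log2 fold change -1.50, SE 0.22, edgeR adjusted p = 8.00e-04). Timp1 lies inside Syn1 and Timp3 inside Syn3, each on the opposite strand. Syn1 had 912 to 1401 counts per library, beside 133 to 629 for Timp1, and Syn3 had 0 to 3. The limit on strand given above for Mmp19 applies to both of these overlaps, so the level of Timp1 may depend on it. Timp2 overlaps Cep295nl on its own strand, which had 8 to 29 counts.

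Fibroblast markers moved in the same direction as Timp1 and Timp3, and fibroblasts express both inhibitors as well as Mmp2, Mmp3, Mmp11 and Mmp14. Of 10 fibroblast markers 9 were tested and 7 fell (8 with the replicate block), beside 19.0% of all genes tested (26.4% with the block). The markers that fell included Col1a1 (log2 fold change -2.10), Col1a2 (-2.05), Col3a1 (-1.95) and Dcn (-1.25). The summed level of the marker list was 27.1 to 39.1 CPM in PP2Ac KO and 83.9 to 130.2 CPM in WT, and Lum was untested with at most 6 counts in a library. The others not called were Thy1 (edgeR adjusted p = 0.0888) and Fap (adjusted p = 0.177), and Fap was the only marker tested that was not lower on average in PP2Ac KO. Their part in the results for these genes was not tested. In such bulk libraries, fewer cells of a type and less RNA per cell cannot be told apart. Of the MMP genes named with fibroblasts here, Mmp3 (log2 fold change -0.88) and Mmp11 (-1.45) fell. Mmp2 (-0.22) was not called and Mmp14 (0.89) rose.

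**Figure D2:**
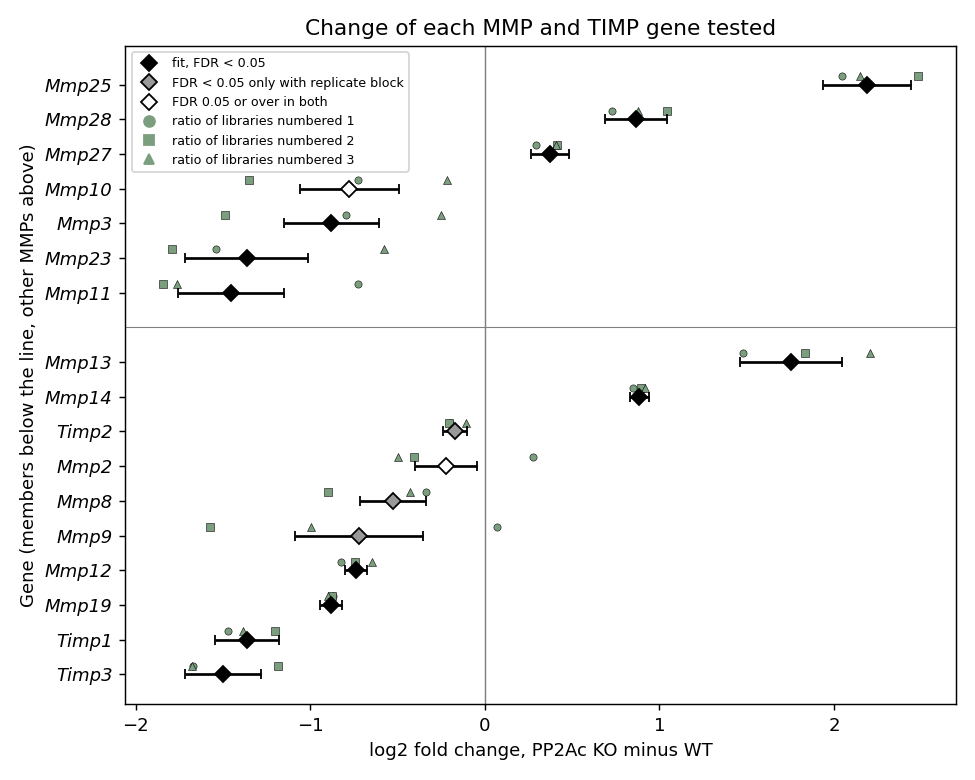
Log2 fold change (PP2Ac KO minus WT) of the 10 members and the 7 other MMP genes tested, as diamonds with the SE of the edgeR fit as bars, filled black where FDR was under 0.05 and grey where this held only with the replicate block. Green points give the difference between libraries of the same replicate number. Mmp13 and Mmp25 lie farthest to the right, at 1.75 and 2.19, and Timp3 farthest to the left, at -1.50.

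Levels per kilobase of exon allow genes to be compared with each other, and the leading MMP transcript differed between the genotypes. In WT the order was Timp2 (142.0 ± 3.90 CPM per kb), Mmp19 (60.5 ± 2.21), Mmp12 (40.7 ± 1.61), Mmp13 (15.05 ± 6.89), Timp1 (11.9 ± 2.44) and Mmp14 (8.43 ± 0.284), each as mean ± SD over 3 libraries. Timp3, Mmp2, Mmp8 and Mmp9 followed at 1.03, 0.889, 0.838 and 0.683 CPM per kb. The ranges of Mmp13 (8.83 to 22.5) and Timp1 (9.37 to 14.3) overlapped in WT, as did the range of each of the last 4 with that of its neighbour in the order. In PP2Ac KO Timp2 again led (126.2 ± 5.60 CPM per kb), but Mmp13 came next (50.9 ± 11.0), ahead of Mmp19 (32.9 ± 1.0), Mmp12 (24.4 ± 0.928), Mmp14 (15.6 ± 0.164) and Timp1 (4.65 ± 0.921). The ranges of Mmp13 (40.7 to 62.5) and Mmp19 (31.7 to 33.6) did not overlap. Mmp2, Mmp8, Mmp9 and Timp3 closed the order at 0.758, 0.578, 0.410 and 0.369 CPM per kb, Mmp2 just above the range of Mmp8 and the other neighbours overlapping. With the length of the longest transcript in place of all exons, Mmp12 came before Mmp19 in both genotypes, and the WT order of Mmp13, Timp1 and Mmp14 became Mmp14, Mmp13, Timp1. In PP2Ac KO, Timp3 then stood above Mmp8 and Mmp9. Mmp13 (40.7 to 62.5) was then followed by Mmp12 (37.7 to 40.5) in PP2Ac KO, with ranges that nearly met.

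Summed over all MMP genes, the level per kilobase was 137.2 ± 12.4 CPM per kb in PP2Ac KO and 142.2 ± 11.1 CPM per kb in WT (SD, n = 3 each), and the libraries overlapped. The makeup of that sum was different. Mmp13 made up 36.8 ± 4.69% of it in PP2Ac KO and 10.4 ± 3.99% in WT, and Mmp14 made up 11.4% and 5.94%. Mmp19 made up 24.1% and 42.8%, and Mmp12 made up 17.9% and 28.7%. Together Mmp12 and Mmp19 held 37.4% to 45.9% in the PP2Ac KO libraries and 66.5% to 77.3% in the WT libraries. With the longest transcript lengths the share of Mmp13 was 30.1% and 8.33%, and that of Mmp14 was 17.1% and 8.75%. Mmp12 then made up 23.6% and 37.1%, and Mmp19 made up 20.4% and 35.5%. Each share depends on the other genes of the sum, and no test was made on it.

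**Figure D3:**
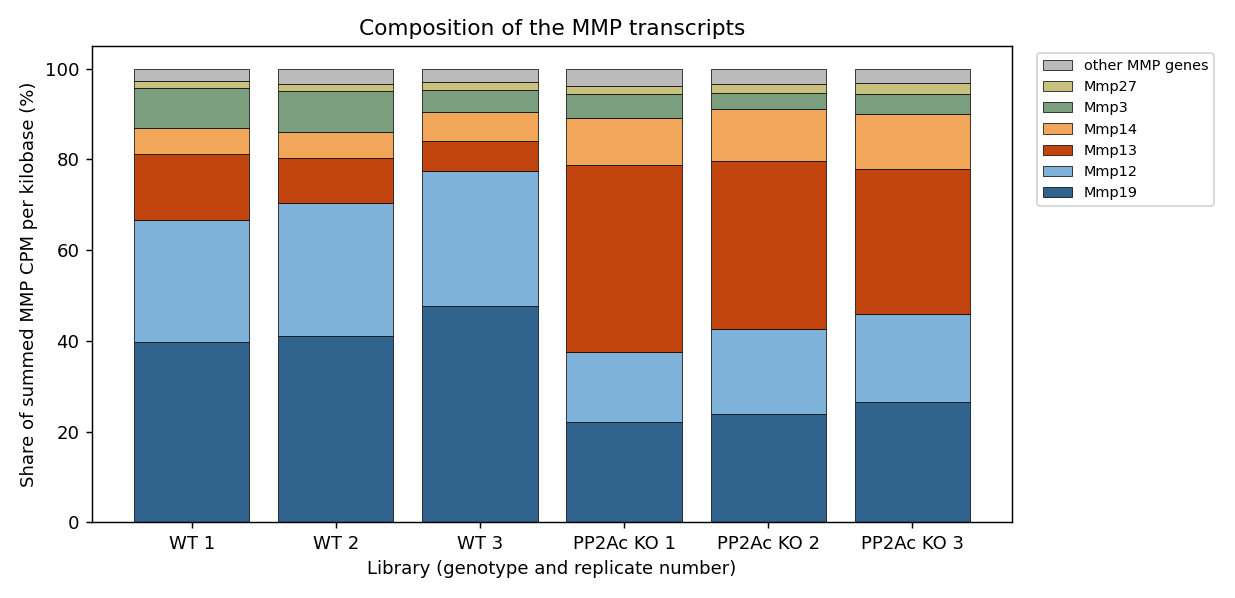
Share of each gene in the summed MMP level (CPM per kb of exon, in %) of each library, as stacked bars that reach 100%, with the 3 WT libraries on the left and the 3 PP2Ac KO libraries on the right. Mmp19 and Mmp12 (blue) fill 66.5% to 77.3% of the WT bars and 37.4% to 45.9% of the PP2Ac KO bars, and Mmp13 (red) takes the largest share of each PP2Ac KO bar.

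The summed TIMP level was 131.2 ± 4.88 CPM per kb in PP2Ac KO and 154.9 ± 3.82 CPM per kb in WT (SD, n = 3 each), and every PP2Ac KO library was lower. Timp2 made up 96.2% and 91.7% of the summed level, so Timp1 and Timp3 held a small share of it. In CPM per kb, the WT and PP2Ac KO means were 142.0 and 126.2 for Timp2, which was not called. They were 11.9 and 4.65 for Timp1, and 1.03 and 0.369 for Timp3. The ratio of summed TIMP to summed MMP level was 0.963 ± 0.119 in PP2Ac KO and 1.09 ± 0.0810 in WT, with overlap. These are transcript levels and do not give protein or enzyme activity.

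Of the 17 other MMP and TIMP genes listed, 7 were tested, and 3 rose and 3 fell, beside 18.1% and 19.0% of all genes tested. The 10 untested genes had at most 12 counts in a library, and Mmp1a, Mmp7, Mmp20 and Mmp21 had 0 counts in all 6. Mmp25 (MT6-MMP, a GPI-anchored MMP known from leukocytes, chr17:23628311-23645277, minus strand) showed the largest change. It stood at 10.1, 8.21 and 5.92 CPM in PP2Ac KO libraries 1 to 3 and at 2.43, 1.47 and 1.34 CPM in WT libraries 1 to 3. The fitted rise was 4.56-fold (8.06 ± 2.08 against 1.75 ± 0.599 CPM, SD, n = 3 each; log2 fold change 2.19, SE 0.25, edgeR adjusted p = 2.76e-04). As for Mmp13, the libraries numbered 1 were highest and those numbered 3 lowest in both genotypes.

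Mmp28 (epilysin, a secreted MMP with a furin site) rose from 2.02 to 3.72 CPM (log2 fold change 0.87, edgeR adjusted p = 0.00464), and Mmp27 rose from 5.02 to 6.49 CPM (0.37, adjusted p = 0.0247). The call of Mmp27 was lost without PP2Ac KO replicate 1 or 3 or WT replicate 2 (0.39, 0.30 and 0.31 on the log2 scale) and under upper-quartile scaling. Mmp11 (stromelysin 3, log2 fold change -1.45, edgeR adjusted p = 0.00491) and Mmp23 (-1.36, adjusted p = 0.0141) fell at levels near 1 CPM or below, and Mmp23 passed the count filter through WT libraries only and was not called without WT replicate 2 (-1.19, adjusted p = 0.0572). Mmp11, with 11 to 52 counts per library, overlaps Chchd10 on the other strand, which had 229 to 293. The limit on strand given above for Mmp19 applies to this overlap too. Mmp3 (stromelysin 1, which activates other proMMPs) fell from 19.7 ± 7.03 to 10.7 ± 2.97 CPM (SD, n = 3 each; log2 fold change -0.88, edgeR adjusted p = 0.0309). Its groups overlapped, because WT library 3 (11.6 CPM) lay below PP2Ac KO library 1 (14 CPM), and the call was lost in DESeq2 (adjusted p = 0.0815), in limma-voom (adjusted p = 0.0521) and without PP2Ac KO replicate 2 or 3 or WT replicate 1 or 2 (log2 differences -0.70 to -0.81). Over its 13 alternatives the adjusted p of Mmp3 ran from 8.93e-08 to 0.108. The related stromelysin Mmp10 had a log2 difference of -0.78 and was not called (edgeR adjusted p = 0.0573, and 0.0384 without WT replicate 3).

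The Mmp cluster of chromosome 9 spans chr9:7272514-7699585 (427.1 kb), and its genes did not move as a block. Of its 10 Mmp genes 6 were tested, 2 rose (Mmp13 and Mmp27) and 2 fell (Mmp12 and Mmp3), beside 18.1% and 19.0% of all genes tested. Mmp13 and Mmp12 were called in all 13 alternatives, Mmp27 in 9 and Mmp3 in 7. Mmp13 and Mmp12 changed in opposite directions although only 61.0 kb lie between them. On the Mmp13 side, Dcun1d5, a regulator of cullin neddylation, had a log2 fold change of 0.20 (edgeR adjusted p = 0.0241, over 0.05 in 6 of 13 alternatives, among them each of PP2Ac KO replicates 2 and 3 and WT replicates 2 and 3 left out), and Dync2h1, a motor of cilia, one of -0.30 (adjusted p = 0.230).

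On the far side of the cluster, Tmem123 had a log2 difference of -0.08 (edgeR adjusted p = 0.563). Birc2 and Birc3, ubiquitin ligases of TNF receptor signaling, rose from 35.1 to 54.9 CPM and from 82.5 to 155.6 CPM (log2 fold changes 0.64 and 0.92, edgeR adjusted p = 5.99e-04 and 3.10e-04). Yap1, the transcriptional coactivator of the Hippo pathway, lies 232.4 kb beyond the cluster and fell at a low level (log2 fold change -2.08, edgeR adjusted p = 0.00142). It had 13 to 15 counts per PP2Ac KO library and 37 to 87 per WT library. The part of the fibroblast markers in this fall was not tested.

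**Figure D4:**
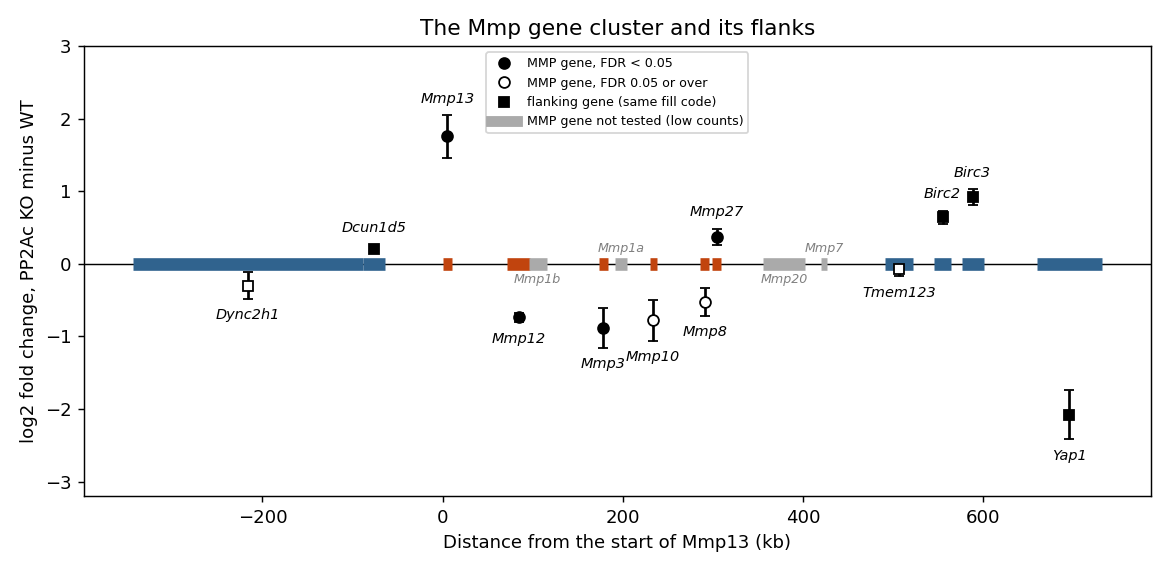
Log2 fold change (PP2Ac KO minus WT) with SE of each tested gene of the chromosome 9 Mmp cluster (circles) and its flanks (squares), against the distance from the start of Mmp13 in kb, with gene extents as bars on the zero line. Filled symbols mark FDR under 0.05 and grey bars untested genes. Mmp13 at 1.75 and Mmp12 at -0.74 stand on opposite sides of zero.

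Partners of the family comprise the proteases that activate MMPs, the plasminogen system, surface docking and clearance proteins, and the related ADAM and ADAMTS proteases. Of 32 such genes, 23 were tested, and 4 rose and 8 fell, beside 18.1% and 19.0% of all genes tested. With the replicate block 5 rose and 12 fell, beside 24.4% and 26.4%. The partners' median log2 fold change was -0.11. The genes that rose were Plaur, the receptor of urokinase (log2 fold change 0.80, edgeR adjusted p = 2.77e-04), the sheddases Adam17 (0.42, adjusted p = 0.00350) and Adam9 (0.25, adjusted p = 0.0158, and 0.0755 without WT replicate 2), and Furin, the convertase that activates Mmp14 and Adam17 (0.27, adjusted p = 0.00908).

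The largest fall among the partners was that of Adam19. This membrane sheddase went from 16.1 ± 1.01 to 3.02 ± 0.735 CPM (SD, n = 3 each; log2 fold change -2.40, edgeR adjusted p = 3.90e-05). Serpinb2, an inhibitor of urokinase, fell at about 1 CPM (-1.42, edgeR adjusted p = 0.00418). Adam12 (-1.58, edgeR adjusted p = 0.0213) and Adamts1 (-1.42, adjusted p = 0.0369) passed the count filter through the WT group only, with 1 PP2Ac KO library each over the cutoff. Each had an adjusted p over 0.05 in 4 of its 12 alternatives: Adam12 without PP2Ac KO replicate 1 or 3 or WT replicate 1 or 2, and Adamts1 without PP2Ac KO replicate 2 or 3 or WT replicate 1 or 2. Serpine2, Plat and Adamts10 also fell. Fibroblasts express Adam12, Adam19 and Adamts1 as well, and the part of the fibroblast markers in these results was not tested.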

How the data were processed

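Poly(A)-selected, strand-specific RNA-Seq libraries were made from BMDM (3 PP2Ac KO and 3 WT). The authors deposited raw read counts per gene symbol on mm10 (GRCm38). The submitters' processing notes name fastp 0.20.0, kallisto 0.46.1, STAR 2.7.1a, HTSeq 0.11.2, edgeR 3.34.0 and limma 3.48.3, and the role of each and the strand setting of the counting are not given in the sources used here. Of 55453 genes, 30767 had no count.

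Groups came from the labels. Genes passing edgeR's filterByExpr (minimum count 10, minimum total 15) were tested with edgeR 4.0.16 in R 4.3.3 (quasi-likelihood test, TMM, genotype alone), two-sided, with Benjamini-Hochberg adjustment over all 13680 genes and a call at FDR under 0.05. SE is the log2 fold change divided by the square root of F. No test for these data is given in the sources used here, and the study's thresholds (FDR 0.01, log2 fold change 1) were used as a second call in both directions. The test was checked on simulated counts. Alternatives were upper-quartile and RLE scaling, no filter, a minimum of 10 counts in every library, the replicate number as a block, DESeq2 1.42.0, limma-voom (limma 3.58.1), and leaving out each library.

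Libraries with the same replicate number in the labels deviated together (correlations of deviations from the group means 0.446, 0.275 and 0.459). The numbers were therefore taken as pairs in the block fit. With 3 libraries per group few other matchings exist, so these correlations alone cannot show that the libraries were paired. The sources used here do not say what a number marks. Gene positions, exon lengths and overlaps are from GENCODE M21 (GRCm38), which held 99.5% of the symbols tested. Promoters are from RefSeq. All members and tested family genes, the flanking genes and the up to 5 most changed called partners per direction are named, except 1 partner that is not reported here. The members and lists were chosen with earlier results of these data known.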

Additional observations from a re-analysis of the deposited data

How the results depend on the processing

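The calls of Mmp12, Mmp13, Mmp14, Mmp19, Timp1 and Timp3 held under all 13 alternatives, with Mmp13 between 1.49 and 2.16 on the log2 scale. Mmp2 was not called in any of them. Mmp8 was called in 5, Mmp9 in 3 and Timp2 in 3 of the 13. With the replicate block, 7 members were called lower in place of 4, and over all genes 3343 were higher and 3615 lower. The block moved the counts of other MMP, TIMP and partner genes by 1.5 times at most. Leaving out single libraries gave 1 to 4 other MMP and TIMP genes called lower, with 1 without WT replicate 2, and 1974 to 2721 genes higher and 1873 to 2720 lower over all genes. Upper-quartile scaling moved the median of all genes to -0.09, and no member changed direction. The cause of these differences was not tested. The members' lowest count was 36.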

Other observations

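Lists of other cell types gave values that belong to no comparison above. Beside their counts, 18.1% of all genes tested were higher and 19.0% lower (24.4% and 26.4% with the replicate block). Of 7 osteoclast markers 5 were tested, 1 rose (Acp5; 2 rose with the replicate block) and 2 fell (Ctsk and Dcstamp) in edgeR's test at FDR under 0.05, with a summed level of 82.9 to 87.3 CPM in PP2Ac KO and 90.1 to 102.5 CPM in WT, and Calcr was at 0. Of 5 endothelial markers 3 were tested and 2 rose, Kdr and Cdh5, or 3 with the replicate block, with a summed level of 200.7 to 249.5 CPM in PP2Ac KO and 86.8 to 137.7 CPM in WT. Most of this sum was Kdr, at 182.4 to 229.5 CPM in PP2Ac KO and 76.4 to 124.9 CPM in WT. Pecam1 stood at 6.18 to 9.92 CPM over all libraries, and Tek and Emcn were untested with at most 6 counts in a library. Of 5 dendritic cell markers 2 were tested and Clec9a was called higher. It passed the count filter through the PP2Ac KO group only, with 2 WT libraries over the cutoff. The summed level of the dendritic list was 1.29 to 2.54 CPM in PP2Ac KO and 1.03 to 1.71 CPM in WT. The summed level of the 8 macrophage markers was 8620 to 8730 CPM in PP2Ac KO and 7275 to 7836 CPM in WT.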
